A study of Homo sapiens with 8 samples.

Results

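This section describes 10 genes of prostaglandin synthesis, signalling and breakdown, among 18417 genes with a value on the arrays, in ZR-75-1 cells with and without knockdown of EI24. The genes were PLA2G4A, PTGS1, PTGS2, PTGES, PTGES2, PTGES3, PTGIS, PTGER2, PTGER4 and HPGD. They were chosen by symbol with earlier results of these arrays known, that is with their log2 values and differences over all 4 lines in view, so those values are given as a description, with intervals and without p-values. Each had 1 transcript cluster (the group of probes that reports 1 gene) on the array, so no choice between clusters was needed. ZR-75-1 is an established luminal breast cancer line that expresses the estrogen receptor. The 4 lines compared were parental cells, cells stably carrying a control shRNA against GFP (shGFP), and 2 lines stably carrying an shRNA against EI24 (shEI24 clone 1 and clone 2), each a single clone, so that within a line a trait of the clone and an effect of the shRNA cannot be told apart. All were grown in RPMI 1640 with 10% fetal bovine serum and received no further treatment. There were 2 Affymetrix arrays per line, 8 in all, and values are deposited RMA log2 intensities, where 1 unit is a 2-fold difference. Whether the arrays of 1 line stem from separate cultures is not stated, so errors and p-values reflect array-to-array spread, perhaps only technical.

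Prostaglandins are lipid mediators made from arachidonic acid. Cytosolic phospholipase A2 (PLA2G4A) frees the acid from membranes, the cyclooxygenases PTGS1 and PTGS2 turn it into the unstable prostaglandin H2, and terminal synthases shape that into the end products. PTGES, PTGES2 and PTGES3 make prostaglandin E2, and PTGIS makes prostacyclin. PTGER2 and PTGER4 are the prostaglandin E2 receptors that raise cAMP, and HPGD is the dehydrogenase that begins prostaglandin breakdown. PTGS1 is constitutive in many tissues, whereas PTGS2 is induced by cytokines and growth factors through NF-κB, C/EBP and CREB sites near its start, and in breast cancer it is known for its link to invasive disease.

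EI24 itself was 8.64 and 8.43 in clone 1, 9.25 and 9.19 in clone 2, and 11.91 to 12.09 on the 4 control arrays, so both knockdown lines lay below every control array. The arrays had medians between 7.28 and 7.39, and none stood apart by that measure. All 6 luminal markers examined fell against shGFP, and their summed linear intensity was 7462 to 12611 on shEI24 arrays and 37990 to 44663 on control arrays. Of these, the epithelial cadherin gene CDH1 fell by 6.11, the luminal transcription factor gene GATA3 by 4.81 and the estrogen receptor gene ESR1 by 4.80 on the log2 scale (adjusted p = 9.9e-10, 2.6e-09 and 1.9e-09 from limma). Of 18417 genes, 10289 differed between the shEI24 clones and shGFP at an adjusted p below 0.05, or 55.9%. By direction, 26.8% of all genes were higher in the clones and 29% lower.

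In ZR-shEI24 cells, 3 of the 10 genes were more than 2-fold higher than in shGFP cells. They were PTGS2, PLA2G4A and PTGER4, which act at the release of arachidonic acid, at the cyclooxygenase step and as a prostaglandin E2 receptor (in the order PLA2G4A, PTGS2, PTGER4). Of all 18417 genes, 1600 were at least 2-fold higher, and 17.8% differed by at least 2-fold in either direction. The sequences just upstream of these 3 genes are shown because their arrays separated furthest by line. Each line gives the 250 bases before the RefSeq start of the gene in GRCh38.p14, 5′ to 3′ on the gene's strand. PTGS2 is the minus strand of chr1:186680424-186680673, PLA2G4A the plus strand of chr1:186828699-186828948, and PTGER4 the plus strand of chr5:40679665-40679914. Capitals mark matches, on either strand, to the NF-κB consensus (GGG, any 5 bases, then CC), the C/EBP motif TTNCGCAAT, the CRE core CGTCA and the TATA motif TATAAA.
PTGS2: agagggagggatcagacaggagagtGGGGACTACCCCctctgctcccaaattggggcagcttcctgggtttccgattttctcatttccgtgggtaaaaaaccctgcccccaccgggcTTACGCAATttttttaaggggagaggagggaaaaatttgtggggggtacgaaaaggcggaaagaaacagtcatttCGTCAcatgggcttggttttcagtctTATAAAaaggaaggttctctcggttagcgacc
PLA2G4A: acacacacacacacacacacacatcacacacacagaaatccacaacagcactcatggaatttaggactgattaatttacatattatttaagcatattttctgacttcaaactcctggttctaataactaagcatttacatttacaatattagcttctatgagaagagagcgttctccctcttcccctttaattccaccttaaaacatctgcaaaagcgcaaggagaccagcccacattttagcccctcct
PTGER4: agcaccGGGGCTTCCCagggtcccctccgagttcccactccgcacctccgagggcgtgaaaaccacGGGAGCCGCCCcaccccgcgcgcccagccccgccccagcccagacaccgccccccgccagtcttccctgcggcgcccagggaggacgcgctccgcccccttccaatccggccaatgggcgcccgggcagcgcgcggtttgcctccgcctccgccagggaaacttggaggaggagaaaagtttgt

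The PTGS2 window held all 4 kinds of motif. Overlapping NF-κB matches lay 225 to 214 bases before the start, the C/EBP match at 133 to 125, the CRE core at 58 to 54 and the TATA motif at 32 to 27. The PLA2G4A window held none of them. The PTGER4 window held NF-κB matches at 244 to 235 and at 184 to 174 bases before the start, and the latter overlapped a match to the Sp1 motif GGGCGG. These letters are common: 54.4% of 35116 upstream windows of the same length in the RefSeq table held the NF-κB consensus, 42.6% the Sp1 motif, 21.2% the CRE core and 10.7% the TATA motif. The C/EBP motif was in 0.148% of windows. It has more fixed letters than the others, which lowers its share, and looser forms of it were not searched for. RefSeq gave 13 windows for 9 of the 10 genes, and none was listed for PTGIS. Of these 13, 10 held the NF-κB consensus, 10 the Sp1 motif, 4 the CRE core, 2 the TATA motif and 1, that of PTGS2, the C/EBP motif. A match is a description of letters and not of binding, which was not measured here.

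**Figure D1:**
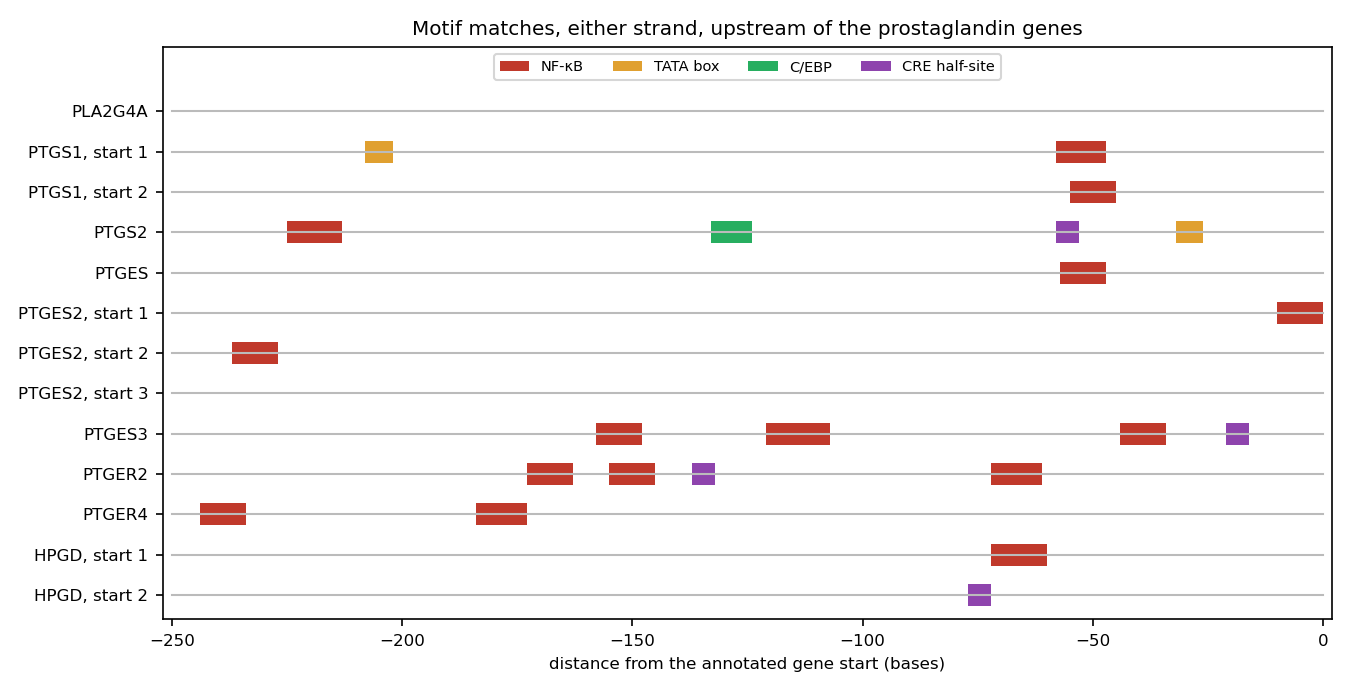
Motif matches on either strand in the 250 bases upstream of the RefSeq start of each prostaglandin gene. The horizontal axis is the distance in bases from the start, each row is 1 of 13 windows, with several starts for PTGS1, PTGES2 and HPGD, and colored blocks are matches. PTGS2 is the single row with all 4 motif kinds and PLA2G4A is a row with none.

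PLA2G4A, the first enzyme of the pathway, was 4.63 and 4.40 on the parental arrays and 4.26 and 4.57 on the shGFP arrays. It was 8.88 and 8.37 on the arrays of clone 1 and 8.47 and 7.74 on those of clone 2. Every shEI24 array thus lay above every control array, and the lowest of them was 7.74 where the highest control was 4.63. The mean of the clones exceeded shGFP by 3.95 (standard error 0.22, 95% interval 3.46 to 4.44), or 15.4-fold. Its arrays within a clone were further apart than those of PTGS2 or PTGER4. The residual standard deviation, pooled over all 4 lines, was 0.35 against 0.08 and 0.14.

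PTGS2, the inducible cyclooxygenase, was 5.38 and 5.17 on parental arrays and 5.18 and 5.23 on shGFP arrays. It was 12.85 and 12.83 in clone 1 and 12.12 and 12.07 in clone 2. The 4 control arrays lay close together and far below every shEI24 array, and clone 1 lay above clone 2 on both arrays. Against shGFP, clone 1 was higher by 7.64 (95% interval 7.42 to 7.86) and clone 2 by 6.89 (6.67 to 7.11), or 199-fold and 119-fold. Both controls gave nearly the same size, since the mean of the clones exceeded parental cells by 7.19 and shGFP by 7.26. In shGFP cells PTGS2 ranked at the 8.63 percentile of all genes on the array and PLA2G4A at the 2.58 percentile. Intensities that low hold mostly background, so these folds are lower bounds.

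PTGS1, the constitutive cyclooxygenase, was 6.26 and 6.38 in parental cells, 6.18 on both shGFP arrays, 6.32 and 6.66 in clone 1 and 6.57 and 6.86 in clone 2. The shEI24 and control arrays overlapped, at the lower array of clone 1 and the higher parental array. Its mean difference from shGFP was 0.42 (95% interval 0.15 to 0.70), against 7.26 for PTGS2 on the same log2 scale. It was 0.23 after a second quantile normalization and 0.28 against parental cells, where it was not past the threshold.

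**Figure D2:**
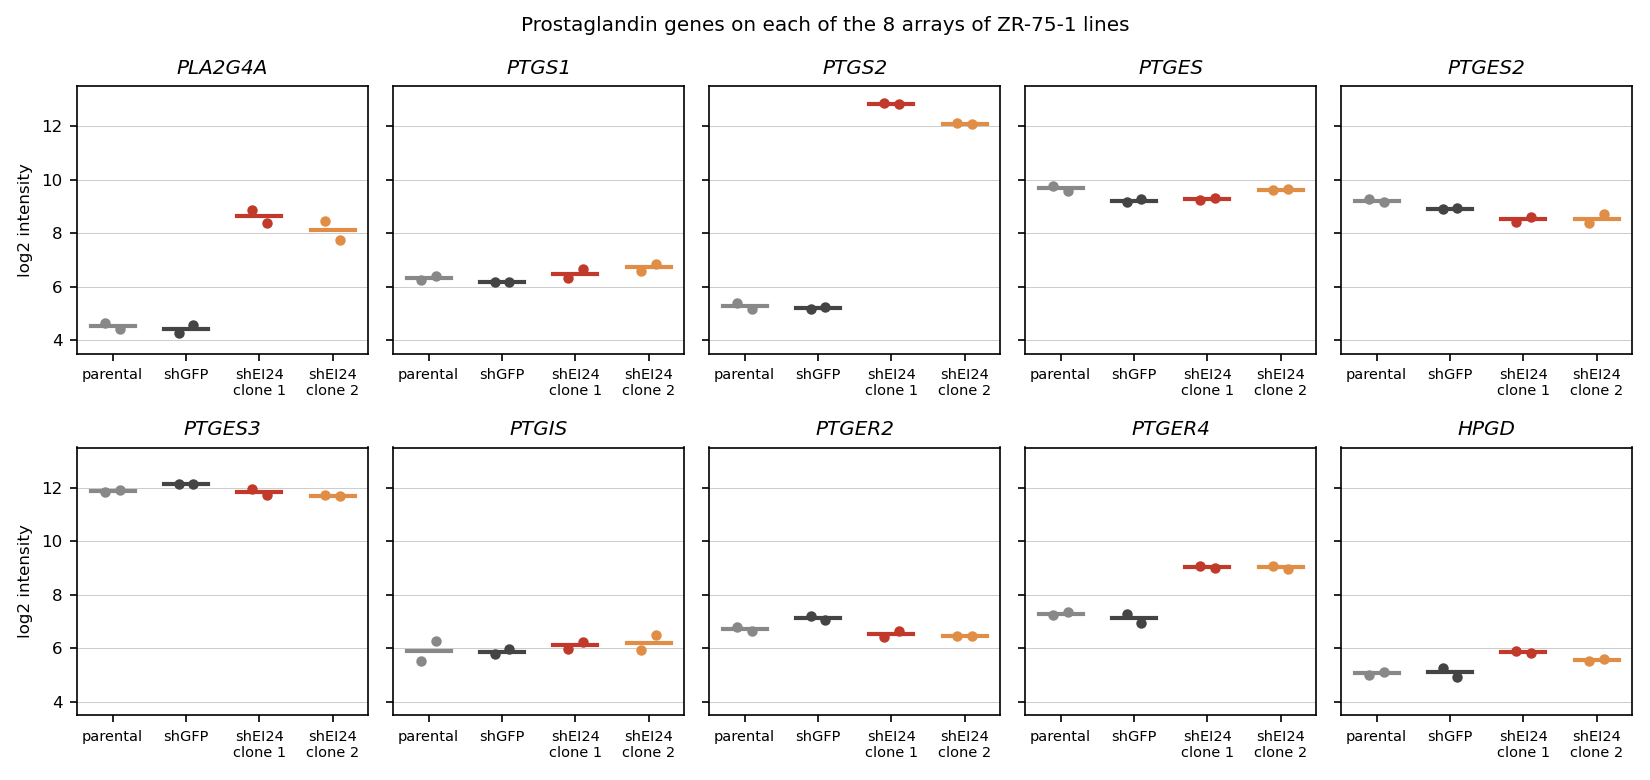
Log2 intensity (vertical axis) of the 10 prostaglandin genes in parental, shGFP, shEI24 clone 1 and shEI24 clone 2 cells (horizontal axis). Each point is 1 array and each bar the mean of a line's 2 arrays. The shEI24 points of PLA2G4A, PTGS2, PTGER4 and HPGD lie above all 4 control points, levels of different genes are not comparable because their probes differ, and intensity is relative within each array.

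PTGS2 and PLA2G4A are neighbors. In the gene order of GRCh38.p14 they are adjacent protein-coding genes of chromosome 1, with 1 other annotated gene, the long noncoding RNA gene PACERR, between them and 0 protein-coding genes. The next protein-coding gene beyond PTGS2, the phosducin gene PDC, was 4.27 to 4.58 over all 8 arrays. The next beyond PLA2G4A, BRINP3, was 4.97 to 6.07. Neither spanned as much as the pair between them, whose 8 arrays ran from 5.17 to 12.85 for PTGS2 and from 4.26 to 8.88 for PLA2G4A. Both PDC and BRINP3 reached below 5.17, where intensities hold mostly background, so a fall in either could be missed.

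The 3 synthases of prostaglandin E2 differed less and not in 1 direction. PTGES, the microsomal form that is usually coupled to PTGS2, was 9.77 and 9.58 in parental cells, 9.15 and 9.28 in shGFP cells, 9.24 and 9.33 in clone 1 and 9.60 and 9.65 in clone 2. All 4 shEI24 arrays lay inside the range of the controls. Its mean difference was 0.24 (95% interval 0.04 to 0.43) against shGFP and -0.22 (-0.42 to -0.02) against parental cells, so its direction turned with the control. The control lines themselves differed in PTGES by -0.46 (shGFP minus parental, 95% interval -0.68 to -0.23), which was larger than either.

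PTGES2, the membrane-bound second form, was 9.26 and 9.15 in parental cells, 8.90 and 8.94 in shGFP cells, 8.42 and 8.62 in clone 1 and 8.37 and 8.70 in clone 2. All 4 shEI24 arrays lay below all 4 control arrays. The difference was -0.39 (95% interval -0.64 to -0.15) against shGFP and -0.68 (-0.92 to -0.43) against parental cells. PTGES3, the cytosolic form that is also the Hsp90 cochaperone p23, was 11.83 and 11.90 in parental cells, 12.14 on both shGFP arrays, 11.93 and 11.72 in clone 1 and 11.72 and 11.68 in clone 2. The shEI24 arrays lay below both shGFP arrays and overlapped the parental ones. The difference from shGFP was -0.37 (95% interval -0.56 to -0.18), and its interval against parental cells, -0.29 to 0.09, included 0.

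PTGIS, the prostacyclin synthase, was 5.51 and 6.26 in parental cells, 5.78 and 5.97 in shGFP cells, 5.98 and 6.22 in clone 1 and 5.92 and 6.48 in clone 2. The groups overlapped, and the interval of the difference from shGFP ran from -0.21 to 0.77. The second array was the higher in all 4 lines, by up to 0.75, more than the 0.28 between the clones and shGFP.

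The receptors for prostaglandin E2 that couple to cAMP went opposite ways. PTGER4 was 7.25 and 7.34 in parental cells, 7.29 and 6.95 in shGFP cells, 9.07 and 8.99 in clone 1 and 9.09 and 8.94 in clone 2. The shEI24 arrays lay close together and all above the controls, and their mean was 1.91 above shGFP (95% interval 1.66 to 2.15), or 3.75-fold. The clones differed in PTGER4 by 0.02 (95% interval -0.26 to 0.29).

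PTGER2 was 6.79 and 6.65 in parental cells, 7.19 and 7.06 in shGFP cells, 6.43 and 6.64 in clone 1 and 6.45 and 6.44 in clone 2. All 4 shEI24 arrays lay below all controls, though the highest of them was 6.64 and the lowest control 6.65. The difference from shGFP was -0.64 (95% interval -0.84 to -0.43), of which much lay between the controls, since shGFP exceeded parental cells by 0.40 (0.16 to 0.64). Against parental cells PTGER2 was -0.23 (-0.44 to -0.02).

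HPGD, the first enzyme of breakdown, was 5.00 and 5.10 in parental cells, 5.27 and 4.93 in shGFP cells, 5.91 and 5.83 in clone 1 and 5.50 and 5.61 in clone 2. All shEI24 arrays were above all controls, by 0.61 over shGFP (95% interval 0.37 to 0.85), or 1.53-fold. Its level was at the 7.69 percentile in shGFP cells and at the 14.53 and 10.76 percentiles in clone 1 and clone 2. With both sides that low, background may weigh on either, so the size of this fold is uncertain. The interval between the clones ran from 0.04 to 0.59, with clone 1 the higher.

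Read over the 10 genes, 6 exceeded shGFP and 3 lay under it at the threshold of the model, with PTGIS past it in neither direction, where 26.8% of all genes were higher and 29% lower. The median difference was 0.35 for the 10 genes and 0.08 for all genes. Because the genes were listed with these arrays known, nothing is read from these counts. All 4 shEI24 arrays lay above all 4 control arrays for PTGS2, PLA2G4A, PTGER4 and HPGD and below them for PTGES2 and PTGER2, where 23.8% of all genes lay above, 26.9% below and 50.6% in either way. Against parental cells, 5 of the 10 were past the threshold in the same direction as against shGFP: PTGS2, PLA2G4A, PTGER4 and HPGD higher and PTGES2 lower, where 25.1% of all genes were higher, 30.8% lower and 55.9% either. These comparisons share their shEI24 arrays.

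**Figure D3:**
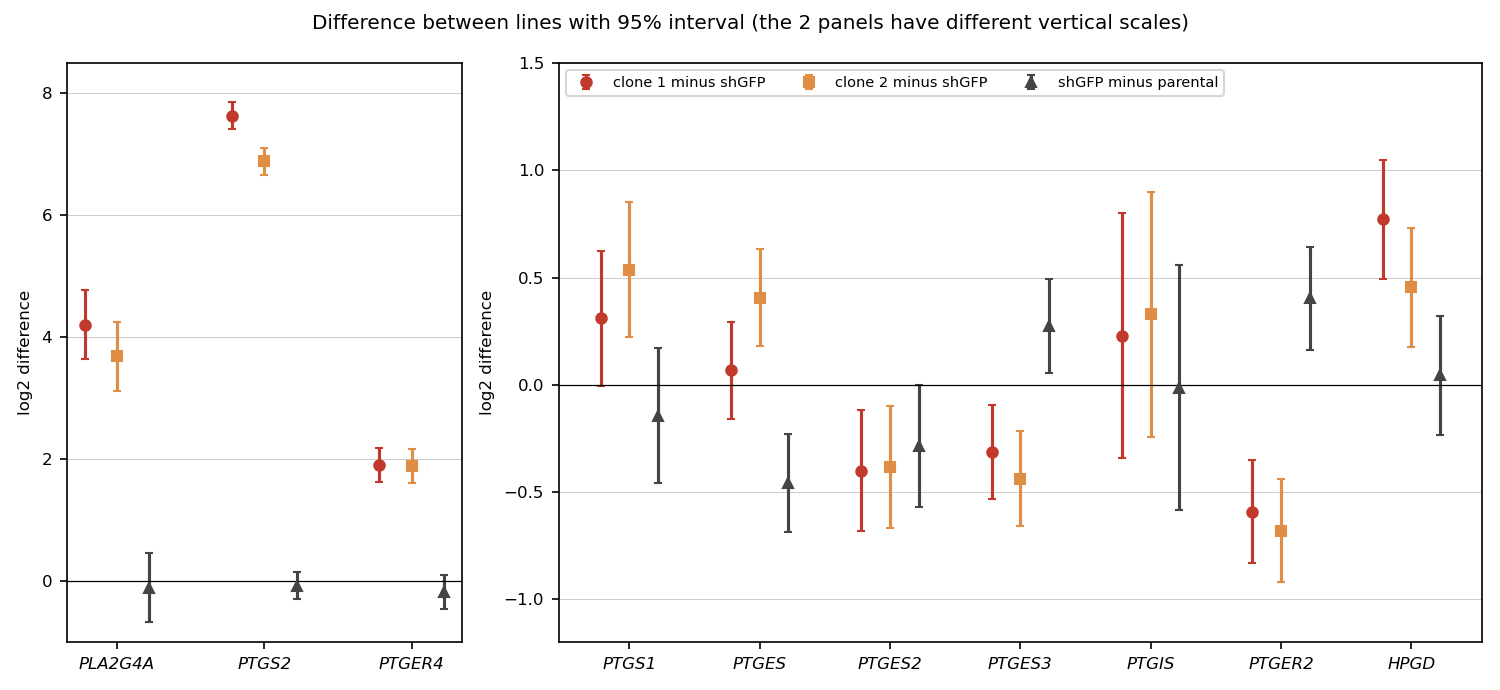
Log2 difference (vertical axis) with its 95% interval for clone 1 minus shGFP, clone 2 minus shGFP and shGFP minus parental cells, for each of the 10 genes (horizontal axis). The 3 genes in the left panel reach 7.64 and have a wider scale than the 7 in the right panel, where shGFP minus parental spans -0.46 to 0.40 and the clones span -0.68 to 0.77.

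Clone 1 minus clone 2 was 0.75 (95% interval 0.53 to 0.97) for PTGS2, the only one of the 10 genes past the threshold between the clones, where 15.2% of all genes were. The interval for PLA2G4A, -0.05 to 1.09, included 0, and it turned on single arrays: the difference was 0.52 with all arrays, 0.89 without the first array of clone 2 and 0.15 without the second. For PTGES, clone 1 minus clone 2 was -0.34 (interval -0.57 to -0.11). The clones also differed in EI24, where clone 1 minus clone 2 was -0.68. Whether these differences are related was not tested.

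Between the control lines, shGFP differed from parental cells past the threshold in 2 of the 10 genes, PTGES and PTGER2, where 10.7% of all genes did. PTGS2, PLA2G4A, PTGER4 and HPGD differed between controls by -0.07, -0.10, -0.18 and 0.05, each with an interval that included 0.

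The genes whose profile over the 8 arrays was most like that of PTGS2, by the root mean square difference after each was centred on its mean, were TFPI2, a serine protease inhibitor (0.30), ANTXR2, an anthrax toxin receptor (0.42), CNN3, a calponin (0.44), MMP1, interstitial collagenase (0.45), and NT5E, the ecto-5′-nucleotidase CD73 (0.59). MMP1 was higher in the clones than in shGFP cells by 8.06, ANTXR2 by 7.02 and TFPI2 by 6.68. For PTGER2, the gene of the 10 with the largest difference downward, the nearest were SNORD7 (0.06), RAC3 (0.07), PIGP (0.07), RPS10P7 (0.08) and LRP11 (0.08), each 0.55 to 0.69 lower in the clones than in shGFP cells. These likenesses rest on 8 arrays and describe the profile alone.

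The rest of the pathway was described from 7 lists of other genes, 107 of 117 with a value. Of these, 62 (57.9%) passed the threshold against shGFP, 44 higher and 18 lower, near the 55.9% of all genes. Their median difference was 0.17. These lists, too, were chosen with earlier results of these data known. Unlike the 10 genes, they are given with adjusted p-values from limma over all genes, which take no account of that choice. With each line as 1 replicate and the controls pooled, 38 passed, and of the genes named below EGR1, SLCO4A1, MGST2, ABCC4, ALOX12B, ALOX5AP, PTGDR and PTGIR did not. With the methods' t-test, adjusted over all genes, 40 passed, and LPCAT3, AKR1C3, SLCO4A1, ABCC4, MGST2, ALOX12B, EGR1, PDE4D, VEGFA, PTGDR and PTGIR did not.

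**Figure D4:**
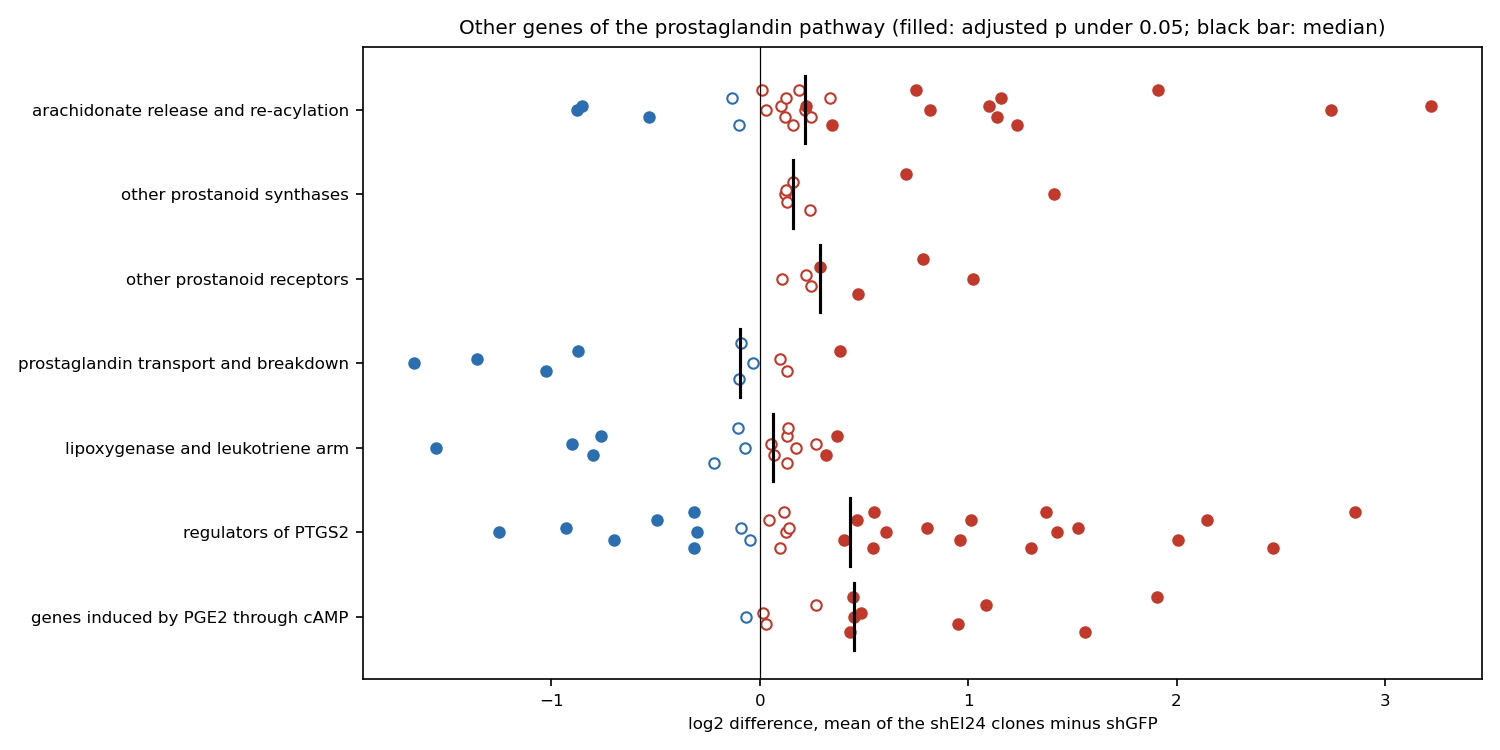
Log2 difference between the mean of the shEI24 clones and shGFP (horizontal axis) for each other pathway gene, by list (vertical axis). Filled points passed an adjusted p of 0.05, red is higher and blue lower in the clones, and black bars are list medians. The list of PTGS2 regulators and that of cAMP-induced genes have medians of 0.43 and 0.45.

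Of 26 measured genes for release and re-uptake of arachidonic acid, 11 rose, 3 fell and 12 did not pass, with a median of 0.22. Over all genes 26.8% rose and 29% fell, with a median of 0.08. ACSL4, the ligase that prefers arachidonate and readies it for return to membranes, was 6.76 and 6.80 in shGFP cells and 9.77 to 10.18 on the shEI24 arrays, higher by 3.22 (adjusted p = 2.3e-08, limma). MGLL, which frees fatty acid from monoacylglycerols, rose by 2.74, and PLA2G15, the lysosomal phospholipase A2, by 1.91 (adjusted p = 3.2e-08 and 1.3e-07, limma). LPCAT2, an acyltransferase of platelet-activating factor synthesis, rose by 1.24. PLA2G6, the calcium-independent phospholipase A2, fell by 0.88 and LPCAT3, which puts arachidonate back into phospholipids, fell by 0.85 (adjusted p = 0.0018 and 7.5e-06, limma).

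Beyond the synthases above, 2 of 7 measured prostanoid synthases rose, 5 did not pass and 0 fell, also at an unadjusted p below 0.05 in limma. The shares over all genes were 26.8% higher and 29% lower. AKR1C3, a prostaglandin F synthase, was 5.51 and 5.61 in shGFP cells, 7.88 and 7.10 in clone 1 and 6.44 and 6.47 in clone 2, a rise of 1.41 (adjusted p = 0.00013, limma). AKR1C3 is related in sequence to AKR1C1 and AKR1C2, so its value is uncertain. TBXAS1, thromboxane synthase, rose by 0.70 (adjusted p = 0.00027, limma). The prostaglandin D synthases PTGDS and HPGDS had differences of 0.13 and 0.16.

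Of the 7 other prostanoid receptors, 4 rose, 3 did not pass and 0 fell, also at an unadjusted p below 0.05. The shares over all genes were 26.8% higher and 29% lower. PTGFR, the prostaglandin F receptor, was 5.60 on both shGFP arrays, 6.43 and 6.45 in clone 1 and 6.62 on the lower array of clone 2, a rise of 1.03 (adjusted p = 0.00011, limma). TBXA2R, the thromboxane receptor, rose by 0.78, PTGDR, a prostaglandin D receptor, by 0.47 and PTGIR, the prostacyclin receptor, by 0.29 (adjusted p = 0.00028, 0.0077 and 0.032, limma). In shGFP cells PTGFR and PTGDR were at the 13.12 and 10.4 percentiles, where background may weigh, so the size of their rises is uncertain. PTGER1 and PTGER3, the other receptors of prostaglandin E2, had differences of 0.22 and 0.10 and did not pass. PTGDR missed the threshold against parental cells (0.31, adjusted p = 0.051, limma) and without the first shGFP array (0.44, adjusted p = 0.063). PTGIR missed it without the first shGFP array (0.26, adjusted p = 0.17), the second shGFP array (0.31, adjusted p = 0.11), the first array of clone 1 (0.28, adjusted p = 0.057) or the second array of clone 2 (0.21, adjusted p = 0.072), all from limma.

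Of 10 genes of transport and breakdown, 4 fell, 1 rose and 5 did not pass, where 29% of all genes fell and 26.8% rose. Of the 5, AKR1C1 shares near-identical sequence with AKR1C2 and is uncertain. Against shGFP it was higher in clone 1 by 0.80 and differed by -0.60 in clone 2 (adjusted p = 0.0028 and 0.012, limma). The clones differed in it by 1.40 (adjusted p = 0.00097, limma). PTGR2, a reductase that follows HPGD in the breakdown of prostaglandin E2, was 9.50 and 9.46 in shGFP cells and 7.63 to 8.05 on shEI24 arrays, a fall of 1.66 (adjusted p = 2e-06, limma). PTGR2 was thus lower where HPGD was higher. PTGR3, a related reductase, was lower by 0.87 and the organic anion transporter gene SLCO4A1 by 1.03, and the paralog-prone AKR1C2 by 1.36. ABCC4, an exporter of prostaglandins, rose by 0.39 (adjusted p = 0.0054, limma). The prostaglandin transporter gene SLCO2A1 had a difference of -0.09.

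In the neighboring lipoxygenase and epoxygenase arm, which draws on the same acid, 2 of 16 measured genes rose, 4 fell and 10 did not pass. Among all genes 26.8% rose and 29% fell. EPHX2, soluble epoxide hydrolase, fell by 1.55, ALOX15, the 15-lipoxygenase, by 0.90, CYP2J2, an epoxygenase, by 0.80 and MGST2, a leukotriene C4 synthase, by 0.76. The increases were small, 0.37 for ALOX12B and 0.32 for ALOX5AP, the activator of 5-lipoxygenase. ALOX12B missed the threshold without the first shGFP array (0.26, adjusted p = 0.23), the second array of clone 1 (0.30, adjusted p = 0.058) or of clone 2 (0.35, adjusted p = 0.055), and ALOX5AP without the second shGFP array (0.31, adjusted p = 0.055), all from limma. ALOX5 itself had a difference of 0.14 and did not pass.

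Of 30 regulators of PTGS2 transcription and mRNA stability, 16 rose, 7 fell and 7 did not pass, with a median of 0.43. Among all genes 26.8% rose and 29% fell, with a median of 0.08. EGR1, an immediate early transcription factor, was 8.29 and 8.13 in shGFP cells, 9.97 and 9.84 in clone 1 and 12.28 and 12.15 in clone 2, a rise of 2.86 (adjusted p = 1.4e-08, limma). With each line as 1 replicate this call was lost (adjusted p = 0.052, limma). NFKB2, the p52 subunit of NF-κB, rose by 2.01 and FOSL1, an AP-1 subunit, by 2.47 (adjusted p = 5.9e-08 and 5.1e-05, limma). CELF2, an RNA-binding protein that binds the PTGS2 message and holds back its translation, rose by 2.14. SP1 fell by 1.25 and FOS by 0.93 (adjusted p = 9.7e-07 and 0.00016, limma). FOS also differed between the controls (shGFP minus parental -0.78, adjusted p = 0.011, limma), and against parental cells its difference was -1.71. Outside the naming rule and chosen after their values were seen, the NF-κB subunit genes NFKB1, RELA and RELB rose by 1.01, 0.55 and 0.96 and REL fell by 0.70, with RELA at 0.33 against parental cells. Of the genes whose products bind the C/EBP motif, likewise chosen, CEBPD rose by 0.80 (0.38 against parental cells), CEBPA fell by 0.32, and CEBPB fell by 0.30 against shGFP and was higher by 0.65 against parental cells. Of the CREB family genes in this list, likewise chosen, CREB1 and ATF2 had differences of -0.05 and 0.10 and did not pass. ATF3 rose by 0.40, with -0.14 in clone 1 and 0.95 in clone 2.

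Between the clones, 12 of the 30 regulators differed, 1 higher and 11 lower in clone 1. Over all genes 15.2% differed, 1711 higher and 1083 lower in clone 1. PTGS2 was higher in clone 1, and whether the regulators are related to that was not tested. Clone 1 minus clone 2 was -2.31 for EGR1, -1.23 for FOSL1 and -0.45 for NFKB2 (adjusted p = 7.6e-06, 0.03 and 0.01, limma). The 1 regulator that was higher in clone 1 was CEBPD, by 0.55 (adjusted p = 0.0056, limma).

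Of 12 measured genes that prostaglandin E2 can induce through cAMP, 8 rose, 4 did not pass and 0 fell, also at an unadjusted p below 0.05, with a median of 0.45. Over all genes 26.8% rose and 29% fell, with a median of 0.08. Of the 4 that did not pass, the clock gene PER1 went opposite ways in the clones, -0.37 in clone 1 and 0.40 in clone 2 against shGFP (adjusted p = 0.0061 and 0.0037, limma). DUSP1, a phosphatase of MAP kinases, rose by 1.90, EREG, the EGF-receptor ligand epiregulin, by 1.56, PDE4D, a cAMP phosphodiesterase, by 1.08 and VEGFA, the vascular growth factor, by 0.95 (adjusted p = 3.5e-07, 1e-05, 8.1e-06 and 6.7e-06, limma). VEGFA also differed between the controls, at 9.77 and 9.71 in parental and 10.42 and 10.47 in shGFP cells, and its difference from parental cells was 1.65. CYP19A1, the aromatase gene that prostaglandin E2 induces in breast stroma, had a difference of 0.03 and did not pass. The level of prostaglandin E2 was not measured on these arrays.

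PTGS2 and PTGER4 are also expressed by leukocytes, fibroblasts and endothelium, and PTGS1 by platelets, so markers of those cells were set beside them. All samples were cultured ZR-75-1 lines, and no label names another cell type. The markers are thus given as gene levels and not as cell counts. For their counts against shGFP, the shares over all genes were 26.8% higher and 29% lower. In bulk RNA, fewer cells of a type and less RNA per cell cannot be told apart. Of 6 fibroblast markers 0 passed in either direction (1 was higher and 0 lower at an unadjusted p below 0.05 in limma), with summed linear intensities of 614 to 689 on control and 633 to 722 on shEI24 arrays. Of 6 leukocyte markers 3 rose, and the sum went from 555 to 649 on control arrays to 4061 to 4500 on shEI24 arrays. CD68, a lysosomal protein of macrophages that other cells also make, accounted for most of that with a rise of 3.95, and CD14 rose by 0.89. The defining leukocyte marker PTPRC also rose, by 0.21 (adjusted p = 0.043, limma), with all shEI24 arrays above all controls, at 4.20 to 4.54 over all 8 arrays. Its shGFP level was at the 1.74 percentile, where intensities hold mostly background. Against shGFP, clone 2 passed (0.25, adjusted p = 0.038, limma) and clone 1 did not (0.17, adjusted p = 0.16, limma). The lysozyme gene LYZ, at 4.80 to 5.08, did not pass. Of 4 endothelial markers 1 rose (sums 238 to 262 and 279 to 322), and of 4 platelet markers PF4 rose by 0.34 and ITGA2B fell by 0.86 (sums 431 to 526 and 394 to 488). The part of these markers, and of the fall in luminal genes, in the differences of the prostaglandin genes was not tested.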

How the data were processed

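Expression was measured on 8 Affymetrix arrays, 2 for each of 4 ZR-75-1 lines. The authors deposited 1 log2 intensity per transcript cluster and array. GCOS and RMA are named in the submitters' processing notes, with versions not given in the sources used here. This method subtracts background, makes the arrays share 1 distribution and summarizes the probes of a cluster, so a change in total RNA per cell is not seen and differences near the floor are compressed. The methods name an exon array, whereas the clusters matched the annotation of a Human Gene 1.0 ST array. In the knockdown labels, the first number was read as the clone, the second as its replicate. Of 33297 clusters, 19460 had 1 gene symbol. Keeping the cluster of highest mean per gene gave 18417 genes.

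Lines were compared in R 4.3.3 by limma 3.58.1 (lmFit, eBayes, 1 mean per line, 4 residual degrees of freedom), with Benjamini-Hochberg adjustment over all genes and a threshold of 0.05. Differences are the mean of both clones minus shGFP unless stated. The genes described and all lists were chosen with earlier results of these data known, so the 10 genes carry no p-values. Of each other list, up to 4 genes with the largest differences past the threshold are named, with up to 2 that went against the list, and all past it among synthases and receptors. Genes with several symbols or none were not analysed here, which leaves PLA2G4B, PLA2G12A, LTC4S and SIK1 out of the lists, along with genes that had no value of their own, among them ACSL3, AKR1B1, LTB4R, LTB4R2 and AREG. PTGR1 was in 2 lists. Upstream sequences are RefSeq's of GRCh38.p14. The alternatives are described in the closing section. The number of arrays limits the precision.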

Additional observations from a re-analysis of the deposited data

Results flagged for a closer look

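Among the 4 shEI24 arrays, 1 array stood apart from the other 3 for 4 of the 43 genes examined. Chance gives about 1 in 20 for 4 arrays of 1 group, but these come from 2 clones, and the rate for that layout was not computed. PTGER2 was 6.64 on the second array of clone 1, against 6.43 to 6.45 on the others. PTGIR was 7.48 on the first array of clone 2, against 7.74 to 7.78. On the first array of clone 1, CELF2 was 7.73 against 7.94 to 7.98, and FOS was 7.71 against 8.01 to 8.05.

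The clones differed from each other, by limma with adjustment over all genes, in 12 of the 33 pathway genes named, which were picked for their large differences from shGFP. Over all pathway lists 25 of 107 (23.4%) differed, and over all genes 15.2%. Clone 1 was higher in LPCAT3 by 0.57 (adjusted p = 0.0024), in AKR1C3 by 1.04 (adjusted p = 0.011), in AKR1C2 by 0.63 (adjusted p = 0.047), in SLCO4A1 by 0.97 (adjusted p = 0.0011) and in MGST2 by 0.84 (adjusted p = 0.0015). It was also higher in EREG by 0.78 (adjusted p = 0.011), in PDE4D by 0.67 (adjusted p = 0.0034) and in VEGFA by 0.67 (adjusted p = 0.0017). Clone 1 minus clone 2 was -2.31 for EGR1, -1.23 for FOSL1, -0.45 for NFKB2 and -0.97 for DUSP1 (adjusted p = 7.6e-06, 0.03, 0.01 and 0.00095), so these were higher in clone 2.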

How the results depend on the processing

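Of the 10 prostaglandin genes, the difference of PTGES was reversed with parental cells as the control (-0.22 in place of 0.24). With shGFP and parental arrays pooled it was 0.01. Over all alternatives and comparisons of the 10 genes, 397 values moved by less than the spread between arrays and 40 by more. This 1 reversed, where only differences past the threshold in the main comparison could count as reversed. Smaller differences also changed sign. With 1 array left out, PTGES2 ran from -0.18 to 0.15 for clone 1 minus clone 2, and HPGD from -0.13 to 0.22 for shGFP minus parental. A second quantile normalization moved PTGS1 to 0.23, PTGES to 0.34, PTGER2 to -0.81 and HPGD to 0.46. With each line as 1 replicate, 6166 genes and 38 of the other pathway genes passed, where 10289 and 62 did in the main comparison. With the methods' t-test 40 pathway genes passed after adjustment. At 2-fold or more, 3272 genes and 26 pathway genes passed, with 282 between the clones and 133 between the controls.

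The 2 arrays of a line share replicate numbers across lines, and the deviations of same-numbered arrays correlated between every pair of lines (0.25 to 0.59, 6 of 6 pairs over 0.1), but nothing in the labels says what a number marks and there are only 2 numbers. With the replicate block, 12050 genes, 72 pathway genes and 4179 genes between the clones passed, and the count between shGFP and parental cells rose from 1962 to 3436. That count was 3117 with a variance trend and robust fit. It was split 592 higher and 1370 lower, against 990 and 1261 after a second quantile normalization and 641 and 1084 with arrays centred on their medians.

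Leaving out 1 array at a time gave 7972 to 10977 genes, 55 to 64 pathway genes, 1744 to 2473 between the clones, where 2794 passed with all arrays, and 394 to 2219 between the controls. The last was 394 without the second shGFP array, 496 without the first, 598 without the first parental array and 854 without the second. Between the clones it was 1744 without the first and 1757 without the second array of clone 2. Where an array was left out, the lone array of that line was assumed to vary like the other lines. Of 622 values of named pathway genes under the alternatives, 588 kept their direction and side of the threshold and 34 were no longer past it.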
